A study of Mus musculus with 13 samples.

Results

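Transcripts of 10 amino acid transporter genes were followed in bone marrow-derived macrophages (BMDMs) that carried or lacked ATP citrate lyase (*Acly*) and were activated with lipopolysaccharide (LPS). The genes were taken by name and all 10 were found among the 24562 genes of the count table: *Slc3a2*, the heavy chain shared by several exchangers, its partner light chains *Slc7a5*, *Slc7a6*, *Slc7a7* and *Slc7a8*, the glutamine and neutral amino acid carriers *Slc1a5*, *Slc38a1* and *Slc38a2*, the lysosomal carrier *Slc36a1*, and *Slc6a19*, a carrier known from gut and kidney. Control BMDMs came from female C57Bl/6J mice with floxed *Acly* alleles and no Cre (*Acly* fl/fl). AclyM-KO BMDMs came from mice with the same floxed alleles and Cre expressed from the *Lyz2* locus, which is active in myeloid cells, so both genotypes carried the floxed gene and only the AclyM-KO cells carried Cre. RNA was sequenced in 3 control and 3 AclyM-KO cultures after 3 h LPS and in 4 control and 3 AclyM-KO cultures after 24 h LPS, and unstimulated cells were not analysed here. The macrophages were grown from marrow in medium conditioned by L929 fibroblasts. The labels do not say whether the cultures of a group came from separate mice, so p-values measure the spread between these cultures.

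Amino acid transporters exchange or pump amino acids across the plasma membrane and out of lysosomes, and the leucine, arginine and glutamine they carry feed protein synthesis, nitric oxide production and the mTORC1 growth pathway of activated macrophages. The SLC7 light chains do not reach the cell surface by themselves: they are joined by a disulfide bond to the single-pass glycoprotein encoded by *Slc3a2*, also called CD98 heavy chain. When cells run short of amino acids, the transcription factor ATF4 raises many transporter genes, among them *Slc7a5*, *Slc3a2* and *Slc38a2*, together with amino acid synthesis and tRNA synthetase genes.

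Total counts were 21274102 to 59577343 in 12 libraries, and control 24 h replicate 1 held only 34467, so that 1 count there stood for 22.4 CPM (counts scaled to a common library size). Values below are therefore from the other 12 libraries, 3 per group, and 24 h results are also given with that library. Scaling of these counts used the trimmed mean of M-values (TMM). To be called changed, a gene needed an adjusted p below 0.05 in edgeR's quasi-likelihood test together with a log2 change larger than 0.75, up or down. The targeted gene *Acly* was at 104.5 to 106.8 CPM in control and 37.7 to 46.2 CPM in AclyM-KO libraries after 3 h, and at 107.4 to 112.8 and 29.0 to 30.5 CPM after 24 h (log2 fold changes -1.34 and -1.88). Macrophage markers summed to 4520 to 10100 CPM. Of these, *Lyz2*, the locus that carries Cre, was lower in AclyM-KO libraries, at 2271.7 to 2942.5 against 5218.5 to 5265.1 CPM after 3 h. After 24 h *Lyz2* was at 859.6 to 957.8 CPM in AclyM-KO and 2358.0 to 2520.0 CPM in control libraries. The other 7 macrophage markers summed to 4713.9 to 4857.7 CPM in control and 4640.3 to 4905.3 CPM in AclyM-KO libraries after 3 h, and to 3633.1 to 3810.1 and 3577.1 to 3765.3 CPM after 24 h, so that their sums overlapped between the genotypes. The sums hide differences of single markers. Of all 8, 1 was higher and 4 were lower in AclyM-KO libraries by edgeR's adjusted p after 3 h. After 24 h 0 were higher and 2 lower. Of all genes tested, 15.4% and 13.9% passed in either direction. Markers of B cells, fibroblasts, erythroid cells and dendritic cells summed to at most 2.4 CPM in any library and those of neutrophils to at most 13.6 CPM. The T cell list reached 25.6 CPM and was led by *Cd4*. After 3 h *Cd4* was at 23.5 to 25.6 CPM in control and 13.5 to 18 CPM in AclyM-KO libraries. After 24 h it was at 8.91 to 9.8 and 5.22 to 5.63 CPM and was called lower in AclyM-KO libraries (log2 -0.8). *Cd3e*, which defines T cells, stayed at 0.08 CPM or less. The part of these markers in the results was not tested, and in bulk RNA fewer cells of a type and less RNA per cell cannot be told apart.

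Among the 10 transporters, 1 was called changed by genotype at each time and it was a different one. *Slc38a2* rose in AclyM-KO BMDMs after 3 h LPS and *Slc6a19* rose after 24 h, against a background of 2.01% of the 11942 genes tested called after 3 h and 1.38% after 24 h. Smaller differences were frequent: 5 of 10 transporters passed the adjusted p alone after 3 h, where 15.4% of all genes did, and 4 of 10 after 24 h, where 13.9% did. *Slc3a2* was higher and *Slc7a7* lower in AclyM-KO libraries at both times. The median log2 fold change of the 10 genes was 0.29 after 3 h and 0.16 after 24 h, beside -0.01 and 0.01 over all genes tested. The genotype groups had no overlapping values for 6 of 10 transporters after 3 h (4 higher and 2 lower in AclyM-KO), with 30.1% of all genes in that position, and for 6 of 10 after 24 h (5 higher, 1 lower), with 33.0% of all genes. When control 24 h replicate 1 was counted among the controls, 2 of 10, *Slc3a2* and *Slc6a19*, had separate groups after 24 h, where 17.5% of all genes did. That library is too shallow to decide this: it had 12 counts of *Slc3a2* and 0 of *Slc6a19*, and 0 counts allow up to 67.2 CPM.

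**Figure D1:**
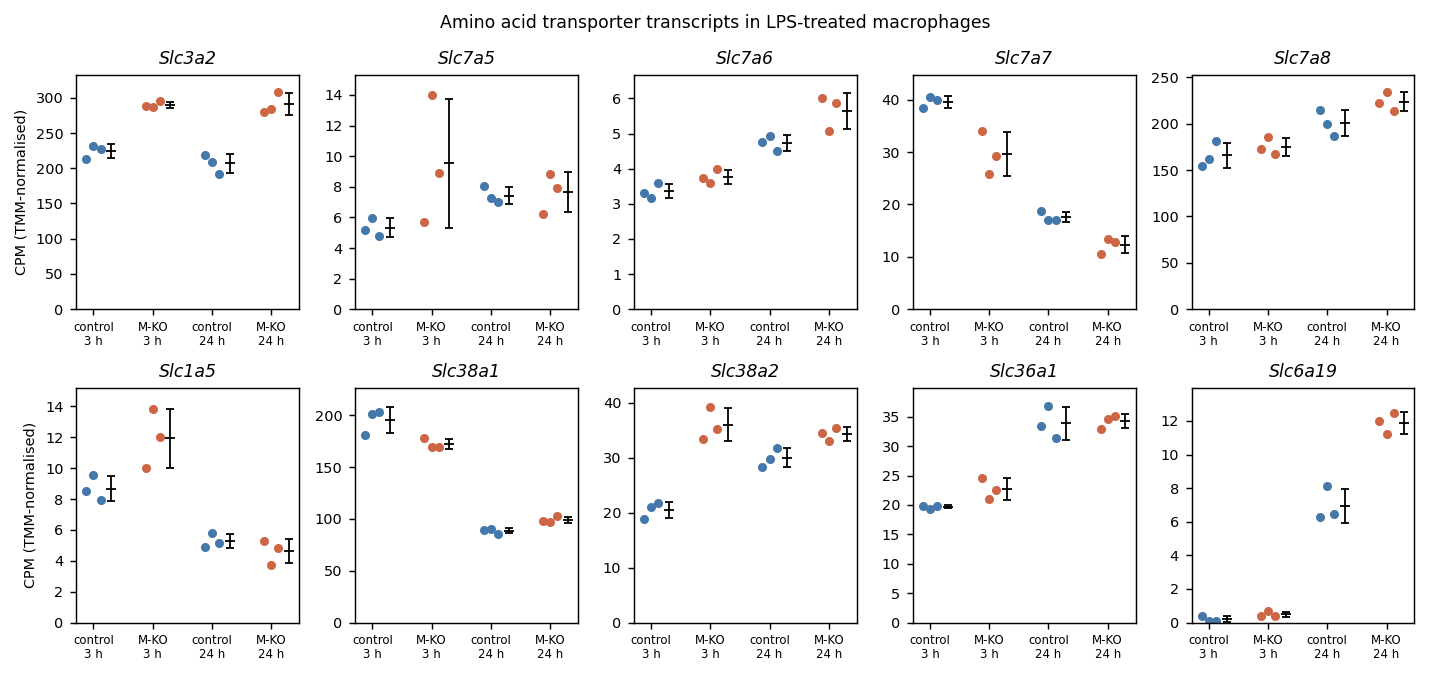
Transcript level in TMM-normalised CPM (y axis, linear from 0, a separate scale for each gene) of the 10 transporters in each of 12 libraries, by genotype and LPS duration. Points are libraries, blue for control and orange for AclyM-KO (M-KO), and black bars give mean and SD (n = 3 per group), with Slc3a2 higher in all AclyM-KO libraries at both times and Slc6a19 near 0 in all 3 h libraries.

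**Figure D2:**
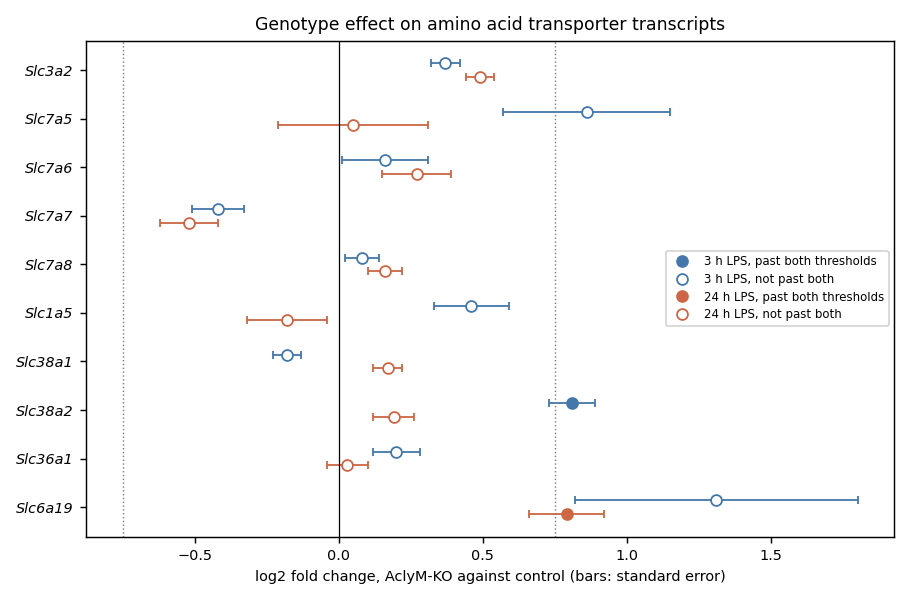
Log2 fold change of AclyM-KO against control (x axis) for each transporter after 3 h (blue) and 24 h LPS (orange), with standard errors as bars and dotted lines at the fold threshold of 0.75. Filled points, Slc38a2 after 3 h and Slc6a19 after 24 h, passed both the adjusted p and the fold threshold.

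The 10 transcripts covered a wide range of levels. Per kb of transcript, which allows genes to be compared, control BMDMs after 3 h LPS held 79.7 ± 3.6 CPM per kb (SD, n = 3) of *Slc3a2*, 40.6 ± 3.32 of *Slc7a8*, 26.9 ± 1.69 of *Slc38a1* and 18.7 ± 0.536 of *Slc7a7*. A lower tier followed with *Slc38a2* at 4.41 ± 0.314 CPM per kb, *Slc36a1* at 3.74 ± 0.0487, *Slc1a5* at 3.14 ± 0.295, *Slc7a5* at 1.51 ± 0.175 and *Slc7a6* at 0.897 ± 0.0552. *Slc6a19*, at 0.05 ± 0.0441 CPM per kb, was barely detected at this time. *Slc7a5*, the light chain known as LAT1 that imports leucine in many dividing cells, thus stood well below *Slc7a8*, which encodes the related exchanger LAT2, and that order of levels held in each of the 4 groups.

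*Slc3a2* (GRCm38 chromosome 19, 8706882 to 8723369, minus strand) encodes the heavy chain that carries its light chains to the membrane. After 3 h LPS it was at 213, 232 and 228 CPM in control replicates 1 to 3 and at 289, 287 and 295 CPM in AclyM-KO replicates 1 to 3. All AclyM-KO libraries lay above all controls, and the difference of 0.37 ± 0.05 (log2, SE) passed the adjusted p (edgeR, 1.07e-05) but not the fold threshold. After 24 h it was at 219, 209 and 192 CPM in control replicates 2 to 4 and at 279, 284 and 308 CPM in AclyM-KO replicates 1 to 3. The groups were again separate, with a difference of 0.49 ± 0.05 on the log2 scale (1.41-fold; edgeR adjusted p = 9.61e-08, and 1.61e-06 with all 13 libraries). The genotype difference itself did not pass the test for a change between the times (interaction 0.12 ± 0.08, edgeR adjusted p = 0.357). In control replicate 1 at 24 h, *Slc3a2* had 12 counts, equal to 269 CPM. This lies below every AclyM-KO library at that time, but 1 count is 22.4 CPM there, too coarse to place it.

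The light chains did not follow the heavy chain as a group. *Slc7a5* (chromosome 8, 121881150 to 121907694, minus strand), which exchanges large neutral amino acids such as leucine, was at 5.16, 5.99 and 4.78 CPM in control and at 5.68, 14 and 8.89 CPM in AclyM-KO replicates 1 to 3 after 3 h. The ranges overlapped, because AclyM-KO replicate 1 lay within the controls while replicate 2 was far above them, and the log2 difference of 0.86 ± 0.29 (1.81-fold) did not pass the test (edgeR adjusted p = 0.0851). DESeq2, the study's tool, called it higher (log2 0.85, adjusted p = 0.0335). Without AclyM-KO 3 h replicate 2 edgeR's difference was 0.46, and without replicate 1 it was 1.11 and passed. After 24 h the values were 8.07, 7.24 and 6.98 CPM in control replicates 2 to 4 and 6.23, 8.84 and 7.90 CPM in AclyM-KO replicates, which enclosed the controls (log2 difference 0.05 ± 0.26, edgeR adjusted p = 0.926). A gene model on the opposite strand, *Gm20388*, overlaps *Slc7a5*, and the strand setting of the counting is not stated in the sources used here.

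*Slc7a7* (chromosome 14, 54369442 to 54417780, minus strand) encodes a light chain that exports cationic amino acids such as arginine in exchange for neutral ones. It was the transporter with lower values in AclyM-KO cells at both times. After 3 h it was at 38.4, 40.6 and 39.9 CPM in control and at 34.1, 25.8 and 29.2 CPM in AclyM-KO replicates 1 to 3. The groups did not overlap, and the log2 difference was -0.42 ± 0.09 (edgeR adjusted p = 0.00107, under the fold threshold). After 24 h it was at 18.7, 17.1 and 17.1 CPM in control and at 10.5, 13.5 and 12.9 CPM in AclyM-KO libraries. These were separate as well (-0.52 ± 0.10, edgeR adjusted p = 0.000289, and 0.000387 with all 13 libraries). *Oxa1l* lies on the opposite strand and overlaps *Slc7a7*, so the caution on strand holds here too.

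*Slc7a8* (chromosome 14, 54722209 to 54781946, minus strand), the most abundant light chain, carries small and large neutral amino acids. It was at 154.5, 162 and 181 CPM in control and 172, 186 and 167 CPM in AclyM-KO replicates after 3 h. These overlapped, with a log2 difference of 0.08 ± 0.06 (edgeR adjusted p = 0.438). After 24 h it was at 215, 199 and 187 CPM in control and 223, 234 and 214 CPM in AclyM-KO replicates, which overlapped at their edges (0.16 ± 0.06, edgeR adjusted p = 0.0728). *Slc7a6* (chromosome 8, 106168857 to 106198706, plus strand), a cationic and neutral exchanger related to *Slc7a7*, was at 3.32, 3.18 and 3.59 CPM in control and 3.74, 3.58 and 3.99 CPM in AclyM-KO replicates after 3 h, with overlapping ranges (log2 difference 0.16 ± 0.15, edgeR adjusted p = 0.531). After 24 h it was at 4.75, 4.94 and 4.50 CPM in control and 6.0, 5.06 and 5.87 CPM in AclyM-KO replicates, which were all above these controls, but the log2 difference of 0.27 ± 0.12 did not pass the test (edgeR adjusted p = 0.165).

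Because the light chains share *Slc3a2*, their summed level was set against it, with the cystine carrier *Slc7a11*, a further partner, included to give 5 light chains. After 3 h LPS the sum was 0.823 ± 0.0335 of the *Slc3a2* level per kb in control (SD, n = 3) and 0.625 ± 0.0278 in AclyM-KO BMDMs. After 24 h it was 0.918 ± 0.0163 and 0.743 ± 0.0578. At both times the AclyM-KO libraries (0.593 to 0.644 and 0.679 to 0.791) lay below the controls (0.791 to 0.858 and 0.908 to 0.937), and an exact two-sided permutation test gave p = 0.1, the smallest value that 3 against 3 libraries allow. The sum itself was 65.6 ± 3.7 CPM per kb in control and 64.4 ± 1.93 in AclyM-KO cells after 3 h, while *Slc3a2* was 79.7 ± 3.6 and 103 ± 1.56. After 24 h the sum was higher in AclyM-KO cells, 76.6 ± 2.88 against 67.5 ± 3.41 CPM per kb in control. *Slc3a2* was then 103 ± 5.51 and 73.6 ± 4.81. *Slc7a8* made up 61.9% of the light chain sum in control BMDMs after 3 h and 72.6% after 24 h, and *Slc7a7* went from 28.5% to 12.3%. In AclyM-KO BMDMs after 24 h the share of *Slc7a7* was 7.54 ± 0.849% and that of *Slc7a11* 16.2 ± 0.763%, beside 12.3 ± 0.341% and 10.1 ± 1.53% in control. These are shares of transcripts and not of protein complexes at the membrane. The ratio was built with the values known, when *Slc3a2* already separated the genotypes at both times, so its p-value adds no support.

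**Figure D3:**
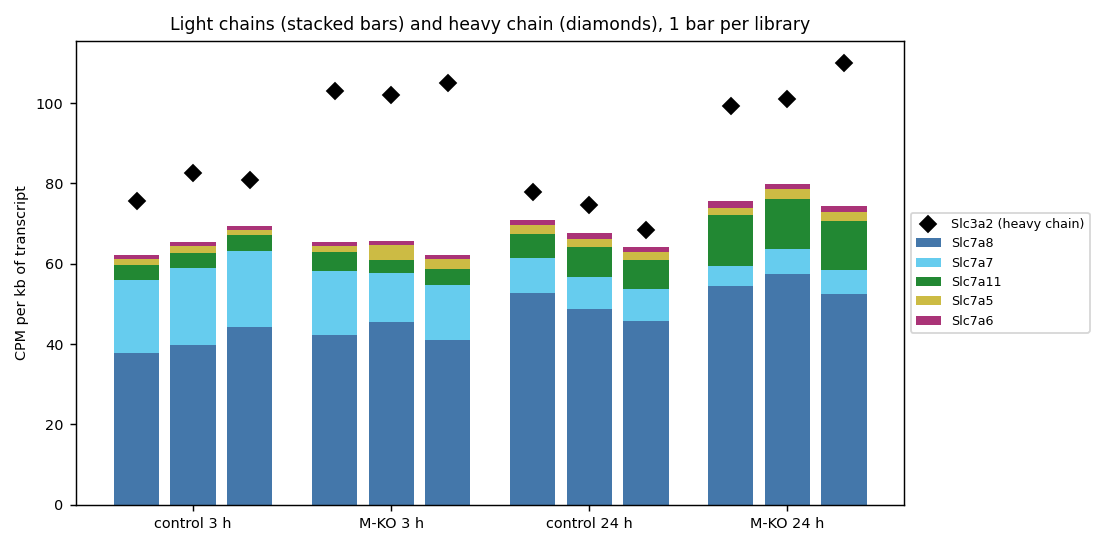
Level per kb of transcript (y axis, CPM per kb) of 5 light chains, stacked in 1 bar per library, and of their heavy chain Slc3a2 (black diamonds), for 3 libraries in each genotype and LPS duration. The diamonds stand at 99.3 to 110 CPM per kb in the AclyM-KO libraries and at 68.4 to 82.5 in the controls, and the light blue Slc7a7 segment is smaller after 24 h.

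*Slc38a2* (chromosome 15, 96687392 to 96699730, minus strand) encodes SNAT2, a sodium-coupled carrier of glutamine, alanine and other small neutral amino acids that is known to rise under amino acid shortage. After 3 h LPS it was at 18.9, 21.1 and 21.7 CPM in control and at 33.4, 39.3 and 35.3 CPM in AclyM-KO replicates 1 to 3. Every AclyM-KO library was far above every control, and *Slc38a2* rose by 0.81 ± 0.08 on the log2 scale (1.75-fold; edgeR adjusted p = 8.15e-09). At 24 h it was at 28.4, 29.8 and 31.8 CPM in control replicates 2 to 4 and at 34.6, 33.0 and 35.4 CPM in AclyM-KO replicates. The groups were still separate, but the log2 difference was 0.19 ± 0.07 and did not pass the test (edgeR adjusted p = 0.0762), and control replicate 1 at 24 h had 2 counts, or 44.8 CPM. The genotype effect was smaller after 24 h than after 3 h (interaction -0.62 ± 0.10, edgeR adjusted p = 0.000169), where 9.58% of all genes passed this test. Without AclyM-KO 3 h replicate 2 the 3 h difference was 0.74, just under the fold threshold, with an edgeR adjusted p of 8.96e-10.

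The sequence before the start of *Slc38a2* is shown because it was the transporter called after 3 h, and that before the start of *Slc36a1*, which rose with LPS duration in control cells, is set beside it. Capitals mark the only match in each to 4 short motifs, searched on both strands after the values had been seen: the C/EBP-ATF composite element TGATGNAA, the E-box CACGTG, the AP-1 site TGANTCA and the antioxidant response element core TGACNNNGC. Both are RefSeq promoter windows of build GRCm38.p6, printed from 5′ to 3′ on the gene's strand, at chr15:96699731-96699978 (minus strand) and chr11:55204090-55204339 (plus strand).
Slc38a2 promoter: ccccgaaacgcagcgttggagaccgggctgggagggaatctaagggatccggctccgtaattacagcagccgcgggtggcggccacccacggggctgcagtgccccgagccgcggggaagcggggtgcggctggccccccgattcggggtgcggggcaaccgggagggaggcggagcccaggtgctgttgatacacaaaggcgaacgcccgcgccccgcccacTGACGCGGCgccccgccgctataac
Slc36a1 promoter: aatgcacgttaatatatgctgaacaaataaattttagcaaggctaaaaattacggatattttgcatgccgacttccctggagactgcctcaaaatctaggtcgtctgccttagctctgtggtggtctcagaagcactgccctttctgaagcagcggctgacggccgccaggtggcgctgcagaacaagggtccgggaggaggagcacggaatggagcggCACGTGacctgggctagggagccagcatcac
The *Slc38a2* match fits the antioxidant response element core, which 10.2% of 32851 promoter windows of 250 bases held, and the *Slc36a1* match is the E-box, held by 6.02%. The C/EBP-ATF letters were found in 2 of the 12 windows matched to 7 of the 10 transporters, both of *Slc7a7*, and in 3.45% of all windows, and the AP-1 letters in 0 of 12 and 6.75%. A match of letters is a description and no evidence of binding, and the promoters of *Slc7a5*, *Slc1a5* and *Slc38a1* are not analysed here.

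*Slc38a1* (chromosome 15, 96571418 to 96642913, minus strand), which encodes the related glutamine carrier SNAT1, was more abundant per kb than *Slc38a2* in control cells after 3 h (26.9 against 4.41 CPM per kb) and moved differently. It was at 181, 202 and 203 CPM in control and at 178, 169 and 170 CPM in AclyM-KO replicates after 3 h. The AclyM-KO libraries were all slightly lower (log2 difference -0.18 ± 0.05, edgeR adjusted p = 0.0158). By 24 h it stood at 88.9, 90.7 and 85.9 CPM in control and at 98.0, 97.2 and 102 CPM in AclyM-KO replicates. Here the AclyM-KO libraries were slightly higher (0.17 ± 0.05, edgeR adjusted p = 0.0326, but 0.126 with all 13 libraries), so that the sign of the genotype effect turned between the times (interaction 0.35 ± 0.07, edgeR adjusted p = 0.00231). Neither difference reached the fold threshold. With single libraries left out, the 24 h difference stayed at 0.14 to 0.18 but no longer passed (edgeR adjusted p 0.0515 to 0.155). The 3 h difference was then -0.23 to -0.15 (edgeR adjusted p 0.00807 to 0.108). The interaction still passed in each case (edgeR adjusted p 0.000731 to 0.0173).

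*Slc1a5* (chromosome 7, 16781340 to 16798274, plus strand) encodes ASCT2, an exchanger of glutamine and small neutral amino acids. After 3 h it was at 8.54, 9.54 and 7.92 CPM in control and at 10, 13.8 and 12 CPM in AclyM-KO replicates. All AclyM-KO libraries were higher (log2 difference 0.46 ± 0.13, edgeR adjusted p = 0.0107, under the fold threshold). At the later time it was at 4.88, 5.80 and 5.17 CPM in control and 5.29, 3.74 and 4.83 CPM in AclyM-KO replicates. These overlapped (-0.18 ± 0.14, edgeR adjusted p = 0.427), and the genotype effect differed between the times (interaction -0.65 ± 0.19, edgeR adjusted p = 0.0245). That call was lost when any of 6 single libraries was left out, with adjusted p-values of up to 0.0916.

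*Slc36a1* (chromosome 11, 55204350 to 55236330, plus strand) encodes PAT1, which couples amino acid transport to protons and sits mainly on lysosomes in many cells. It was at 19.9, 19.4 and 19.8 CPM in control and at 24.6, 21.0 and 22.5 CPM in AclyM-KO replicates after 3 h. The AclyM-KO libraries were all higher, but the log2 difference of 0.20 ± 0.08 did not pass the test (edgeR adjusted p = 0.0866). After 24 h the values were 33.4, 36.8 and 31.4 CPM in control and 33.0, 34.7 and 35.2 CPM in AclyM-KO replicates, which overlapped (0.03 ± 0.07, edgeR adjusted p = 0.858).

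*Slc6a19* (chromosome 13, 73679745 to 73704865, minus strand) encodes B0AT1, a sodium-coupled carrier of neutral amino acids best known from the intestinal and renal brush border. After 3 h LPS only 8, 2 and 2 counts were found in control and 8, 15 and 8 counts in AclyM-KO replicates 1 to 3. These are 0.40, 0.09 and 0.10 CPM against 0.41, 0.66 and 0.38 CPM, with overlapping ranges, and the fit did not call the difference (log2 1.31 ± 0.49, edgeR adjusted p = 0.0716). The ratio of the summed counts, scaled by TMM-normalised library size, was 2.52, with an exact interval of 1.26 to 5.38 (95%, counting error only). After 24 h LPS it was at 6.27, 8.10 and 6.46 CPM in control replicates 2 to 4 and at 12, 11.2 and 12.5 CPM in AclyM-KO replicates. All AclyM-KO libraries lay well above these controls, and *Slc6a19* rose by 0.79 ± 0.13 on the log2 scale (1.73-fold; edgeR adjusted p = 4.33e-05, and 3.39e-05 with all 13 libraries). Control replicate 1 at 24 h had 0 counts, which allows up to 67.2 CPM. The call rests close to the fold threshold: without control 24 h replicate 2 or 4 the difference was 0.74 or 0.73. Of 4 enterocyte markers, *Fabp2* and *Alpi* were at 0 in every library. The list was not at 0 as a whole and summed to at most 0.548 CPM in any library. A gene on the opposite strand, *Slc6a19os*, overlaps *Slc6a19*.

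As over all genes tested, more of these genes were called with LPS duration than with genotype. From 3 h to 24 h, 4 of 10 transporters were called in control BMDMs, where 40.4% of all genes were, and 4 of 10 in AclyM-KO BMDMs, where 42.0% were. *Slc6a19* rose most, from at most 0.40 CPM in control and 0.66 CPM in AclyM-KO libraries after 3 h to the 24 h values above. Summed counts of each time were scaled by TMM-normalised library size. Their ratio was 34.7 in control (exact interval 19.7 to 67.4) and 24.3 in AclyM-KO cells (17 to 36.0), again for counting error only. *Slc7a7* fell by 1.17 ± 0.09 on the log2 scale in control and by 1.27 ± 0.09 in AclyM-KO BMDMs (edgeR adjusted p = 7.09e-13 and 6.48e-13). *Slc38a1* also fell in both genotypes, with log2 changes of -1.14 ± 0.05 and -0.80 ± 0.05 (edgeR adjusted p = 1.7e-18 and 1.54e-14), and its groups at the different times did not overlap.

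The remaining calls with time were made in 1 genotype each. *Slc1a5* fell by 1.37 ± 0.13 on the log2 scale in AclyM-KO BMDMs (edgeR adjusted p = 9.88e-11). In control cells its change of -0.72 ± 0.13 was just under the fold threshold, and the difference between these changes is the interaction given above. *Slc36a1* rose by 0.77 ± 0.08 in control cells (edgeR adjusted p = 1.1e-10), with 0.60 ± 0.07 in AclyM-KO cells, and this difference between genotypes did not pass the test (edgeR adjusted p = 0.327). Without control 24 h replicate 3 the control change of *Slc36a1* was 0.71. *Slc38a2* went from 18.9 to 21.7 CPM in control libraries after 3 h to 28.4 to 31.8 CPM after 24 h (0.55 ± 0.08), while AclyM-KO libraries overlapped between the times (-0.07 ± 0.07, edgeR adjusted p = 0.381). The AclyM-KO level of *Slc38a2* after 3 h, 33.4 to 39.3 CPM, was thus already above the control range at 24 h. When only library sizes were used for scaling, the median of all genes moved by 0.275 (log2) in the control and 0.244 in the AclyM-KO time comparison, and the AclyM-KO change of *Slc38a1* was then -0.55, while *Slc3a2* in control turned from -0.12 to 0.16.

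**Figure D4:**
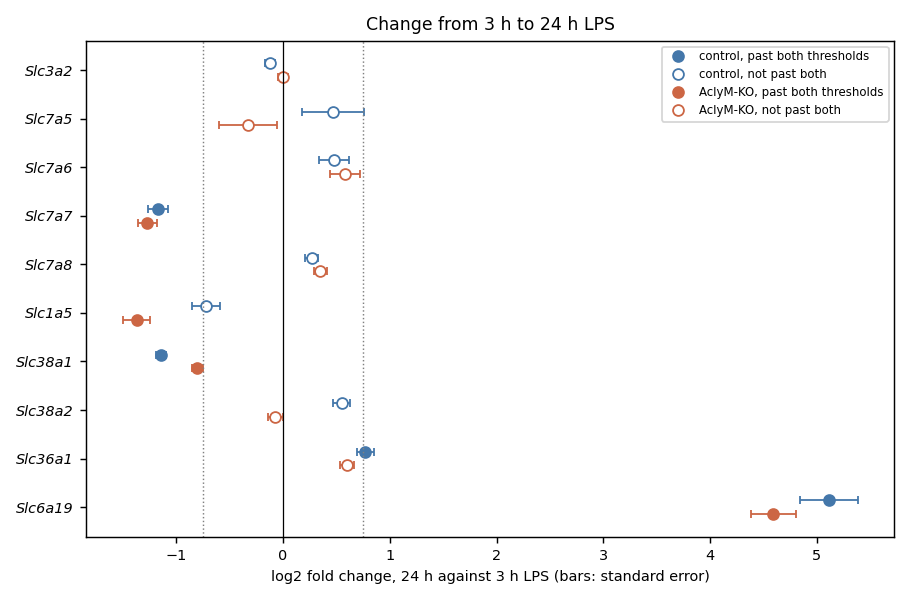
Log2 fold change from 3 h to 24 h LPS (x axis) of each transporter in control (blue) and AclyM-KO BMDMs (orange), with standard errors as bars and dotted lines at the fold threshold of 0.75. Slc6a19 stands apart on the right in both genotypes (5.11 and 4.59), and Slc7a7 and Slc38a1 lie left of the threshold in both.

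The order of levels over the 4 groups was shared by some transporters and not by others. For *Slc7a7* the order was AclyM-KO 24 h, control 24 h, AclyM-KO 3 h and control 3 h from low to high, and no neighbouring groups overlapped. For *Slc38a1* it was control 24 h, AclyM-KO 24 h, AclyM-KO 3 h and control 3 h, again with no overlap between neighbours. *Slc7a5* and *Slc38a2* shared the order control 3 h, control 24 h, AclyM-KO 24 h and AclyM-KO 3 h, in which the AclyM-KO groups of each gene overlapped and, for *Slc7a5*, the control 24 h group overlapped AclyM-KO 24 h as well. For *Slc3a2* the groups of a genotype overlapped across the times and the genotypes were separate, so that it was the transporter ordered by genotype. *Slc6a19*, *Slc7a6*, *Slc7a8* and *Slc36a1* shared the order of means control 3 h, AclyM-KO 3 h, control 24 h and AclyM-KO 24 h. Their 3 h and 24 h groups were separate in all 4 cases, but the genotypes often overlapped. After 3 h they overlapped for *Slc6a19*, *Slc7a6* and *Slc7a8*, and after 24 h for *Slc7a8* and *Slc36a1*.

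The genes with the most similar pattern over the 12 libraries were listed for *Slc7a5*, *Slc3a2* and *Slc6a19* by Pearson's r of log2(CPM + 0.5) with each of the other 11941 genes tested. The libraries share genotype and time groups, so r is a description only. Closest to *Slc7a5* were *Iars*, the isoleucyl-tRNA synthetase (r = 0.967), *Tmem106a* (0.921), *Slc27a1* (0.898), *Mrpl4* (0.874) and *Slc7a1*, a cationic amino acid carrier (0.867). Among the other transporters *Slc38a2* came closest to *Slc7a5*, at rank 64 (0.716), and *Slc3a2* was at rank 788 (0.415), although their proteins form a complex. Closest to *Slc3a2* were *Syvn1*, a ubiquitin ligase of the endoplasmic reticulum (0.947), *Tpst2* (0.936), *Itgb3* (0.918), *Bid* (0.901) and *Csf3* (0.885). *Slc6a19* was matched by *Dnmt3a* (0.996), *Gm5424* (0.995), *Ass1*, the argininosuccinate synthase of arginine synthesis (0.995), *Srxn1* (0.994) and *Aldh1b1* (0.994), and the values of these genes likewise separate the 24 h from the 3 h libraries.

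Other genes of amino acid handling were counted from 4 lists. Their counts stand beside the shares of all 11942 genes given above for each call, and beside unadjusted p-values under 0.05 in 14.6% (higher) and 13.4% (lower) of all genes after 3 h and in 15.1% and 11.2% after 24 h. Of 35 further plasma membrane amino acid transporters, 16 were tested. *Slc1a4*, a carrier of alanine, serine and cysteine, rose in AclyM-KO BMDMs after 3 h (log2 1.24 ± 0.32, edgeR adjusted p = 0.0067), and its level was low, 0.40 to 0.89 CPM in control and 0.97 to 2.14 CPM in AclyM-KO libraries. The highest of these values was that of AclyM-KO replicate 2, and without that library 0 of the 16 were called after 3 h. After 24 h *Slc7a11*, the cystine and glutamate exchanger, rose (0.86 ± 0.12, edgeR adjusted p = 0.000456), from 54.8, 68.2 and 65.7 CPM in control to 117.3, 113.0 and 112.5 CPM in AclyM-KO replicates. The glycine carrier *Slc6a9* rose as well (1.13 ± 0.18, edgeR adjusted p = 4.67e-05), with 1.80 to 2.34 CPM in control and 4.05 to 4.54 CPM in AclyM-KO libraries. Of the 16, 0 were called lower at either time by edgeR or DESeq2, and 1, *Slc16a10*, was lower at an unadjusted p under 0.05, after 24 h (-0.17 ± 0.05). *Slc7a2*, the arginine carrier of activated macrophages, showed no called change after 3 h (-0.08 ± 0.06) and a difference of 0.51 ± 0.06 after 24 h, under the fold threshold (edgeR adjusted p = 3.76e-07).

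Of 11 lysosomal transporters tested, 0 were called by edgeR or DESeq2 at either time, with 4 higher and 0 lower at an unadjusted p under 0.05 at each time. By the adjusted p alone 3 of 11 were higher after 3 h and 4 of 11 after 24 h, where 15.4% and 13.9% of all genes passed in either direction, and *Mfsd12*, needed for cysteine uptake into lysosomes and melanosomes, had the lowest p after 3 h (0.58 ± 0.07, edgeR adjusted p = 3.19e-07). Of 36 genes of amino acid sensing by mTORC1, 2 rose after 3 h, beside 2.01% of all genes called: *Sesn2*, a leucine-binding inhibitor of the pathway (0.99 ± 0.16, edgeR adjusted p = 6.49e-05), and *Kptn*, a subunit of the KICSTOR complex (0.94 ± 0.23, edgeR adjusted p = 0.00471). Of the 36, 0 were called by edgeR or DESeq2 after 24 h, where 6 were higher and 6 lower at an unadjusted p under 0.05 and 4 were higher and 3 lower by the adjusted p (13.9% of all genes).

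Amino acid response genes, known targets or regulators in the ATF4 pathway, were higher in AclyM-KO BMDMs mainly after 3 h. Of 23 tested, 3 rose and 0 fell (3 and 0 by DESeq2, 16 and 0 at an unadjusted p under 0.05 by edgeR), and 13 passed the adjusted p alone with higher values. Of all genes 2.01% were called and 15.4% passed the adjusted p. The median log2 fold change of the 23 was 0.39 beside -0.01 over all genes. *Trib3*, a pseudokinase induced by ATF4, rose by 1.87 ± 0.25 on the log2 scale (edgeR adjusted p = 4.5e-06), from 0.55 to 0.94 CPM in control to 2.15 to 4.07 CPM in AclyM-KO libraries. *Phgdh*, the first enzyme of serine synthesis, rose by 1.13 ± 0.28 (edgeR adjusted p = 0.0074). *Asns*, the asparagine synthetase, named here after its values were seen, rose by 0.95 on the log2 scale (edgeR adjusted p = 0.0362), from 11.4, 13.2 and 10.3 CPM in control to 15.1, 31.7 and 20 CPM in AclyM-KO replicates. *Atf4* itself was 0.34 ± 0.05 higher (edgeR adjusted p = 4.08e-05), under the fold threshold. After 24 h 0 of 23 were called by edgeR or DESeq2, 3 were higher and 2 lower at an unadjusted p under 0.05, and 2 passed the adjusted p. Their median was 0.06, and 9 of 23 passed the interaction test (9.58% of all genes), all with a smaller or reversed genotype effect after 24 h. These counts stand beside 1 library: AclyM-KO 3 h replicate 2 had the highest value of the 3 AclyM-KO libraries in 19 of the 23 response genes (82.6%), in 5 of the 10 transporters and in 38.2% of all genes tested. It had the lowest value of the 3 in 2 of the 23 response genes, in the other 5 transporters and in 34.8% of all genes, so that it was at an extreme in all 10 transporters. Without it 1 response gene, *Trib3*, was called, 10 passed the adjusted p alone with higher values, and their median was 0.29. Among the transporters, *Slc7a5* (14 CPM), *Slc38a2* (39.3 CPM) and *Slc1a5* (13.8 CPM) had their highest value of all 12 libraries in that replicate. What sets this library apart was not tested.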

How the data were processed

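RNA of 13 BMDM cultures was sequenced. The authors made strand-specific libraries, aligned reads to mm10 (per the labels, STAR 2.5.2b) and deposited raw counts per RefSeq transcript, summed with HOMER, without normalization. The strand setting of the counting is not given in the sources used here. Of 35745 transcripts, 35628 were matched to symbols, and 117 without one took 1.13% of counts. For each symbol the transcript with the largest summed count stood for the gene. Groups came from the labels, and 0 columns were unused. In R 4.3.3, edgeR 4.0.16 (TMM, filterByExpr, robust quasi-likelihood test) was fitted to 19621 transcripts of 11942 genes in 12 libraries, and p-values were adjusted by the Benjamini-Hochberg method over all transcripts. DESeq2 1.42.0, other scalings and filters, the fold threshold, all 13 libraries and each replicate left out were alternatives. The fit was tested on simulated data. Members, lists and the rule for named genes (all members, *Acly*, up to 8 called genes per list, and the 5 most similar genes) were chosen with earlier results of these data known. One marker gene is not reported here.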

Additional observations from a re-analysis of the deposited data

Results flagged for a closer look

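Control 24 h replicate 1, the library with 34467 counts, stood apart from the other 3 controls in 6 transporters. It had 0 counts and 0 CPM of *Slc7a5* and of *Slc7a7*. Its values were 22.4 CPM for *Slc7a6* and 22.4 CPM for *Slc1a5*, each from 1 count. They were 67.2 CPM for *Slc36a1* from 3 counts and 224 CPM for *Slc38a1* from 10 counts. A chance rate of about 1 in 20 groups holds for this marking only where all values are equally precise. In this library 1 count stood for 22.4 CPM, so that rate does not apply.

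The effect of genotype differed between 3 h and 24 h LPS by edgeR's interaction test in 3 of 10 transporters, where 9.58% of all genes tested passed. The *Slc1a5* call was lost in some fits with 1 library left out (edgeR adjusted p up to 0.0916). The log2 difference, 24 h minus 3 h, was -0.65 for *Slc1a5*, -0.62 for *Slc38a2* and 0.35 for *Slc38a1*. *Acly*, the targeted gene, also differed (-0.54).

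The same test, passed by 9.58% of all genes, marked further carriers. Of 16 plasma membrane carriers tested, 2 had a positive and 1 a negative interaction, and of 11 lysosomal carriers also 2 and 1. The interaction was 0.88 for *Slc7a11*, 0.60 for the cationic amino acid carrier *Slc7a2* and -0.51 for *Slc16a10*, which carries aromatic amino acids. Among lysosomal carriers it was -0.38 for *Mfsd12*, 0.28 for *Slc15a3*, a peptide and histidine carrier, and 0.29 for the nucleoside carrier *Slc29a3*.

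In the mTORC1 sensing list, of 36 genes tested, 3 passed with a positive and 5 with a negative interaction. It was -1.33 for *Kptn*, -0.86 for *Sesn2*, -0.78 for *Sesn1*, -0.41 for *Lamtor1* and -0.38 for *Bmt2*. It was 0.48 for *Rragd*, 0.45 for *Fnip2* and 0.32 for *Wdr59*. Of 23 amino acid response genes tested, 0 passed with a positive and 9 with a negative interaction. Among the amino acid response genes it was negative in all 8 genes named by the rule, with -1.66 for *Trib3*, -1.14 for *Phgdh*, -0.77 for *Shmt2*, -0.56 for *Cebpg*, -0.44 for *Mars1*, -0.41 for *Atf5*, -0.32 for *Aars* and -0.28 for *Atf4*.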

How the results depend on the processing

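Log2 fold changes of single transporters were recomputed in 844 combinations of a setting and a result, and 793 stayed on the same side of the thresholds with the same sign. The number of transporters called was more sensitive, since *Slc38a2* and *Slc6a19* lie near the fold threshold. After 3 h LPS the count of 1 became 5 without a fold threshold, 0 with a log2 threshold of 1 or with glmTreat, and 2 with DESeq2 or without a filter on low counts (*Slc7a5* and *Slc38a2*). After 24 h the count of 1 became 4 without a fold threshold, and 0 with a threshold of 1, with glmTreat, with at least 10 counts required in every library (which removes *Slc6a19*) and with DESeq2 on all 13 libraries, an alternative chosen after seeing the data, which also called 0 interactions. Without a fold threshold 9 transporters changed with time in control and 7 in AclyM-KO cells. The share of all genes passing that looser cut was not counted, so these numbers say nothing particular about transporters. With the fold threshold 40.4% and 42.0% of all genes were called. With library sizes only, 6 were called with time in control (*Slc7a6* and *Slc38a2* added) and 5 in AclyM-KO cells (*Slc7a6* and *Slc36a1* added, *Slc38a1* lost), against 4 and 4, and RLE size factors left 3 in control, without *Slc36a1*. With single replicates left out the counts were 0 to 2 after 3 h and 0 to 1 after 24 h. Whether replicate numbers pair the samples is not settled. Same-numbered libraries had correlations of -0.031 to 0.059 in their deviations from the group means, and other pairs -0.064 to 0.075. Between the AclyM-KO times, same-numbered pairs were at 0.059, 0.039 and 0.041 and the others at -0.034 to -0.004. Between the control times, same-numbered pairs were at -0.007 and 0.016. With the replicate block the counts were 2 after 3 h and 0 after 24 h.

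Signs turned in results that were not called. *Slc3a2* with time was 0.16 (library sizes only) and 0.11 (DESeq2 on 13 libraries) in control, and in AclyM-KO cells -0.02 (DESeq2), -0.03 (RLE size factors) and -0.01 (1 transcript per symbol, or only the groups compared). *Slc38a2* with time in AclyM-KO cells was 0.17 with library sizes only and 0.15 with DESeq2 on 13 libraries. *Slc36a1* by genotype after 24 h was -0.0041 with DESeq2 on 13 libraries and -0.04 with the block. With single replicates left out, *Slc7a5* spanned -0.06 to 0.18 by genotype after 24 h and -0.59 to 0.04 with time in AclyM-KO cells, the interaction of *Slc7a7* -0.21 to 0.00056, *Slc3a2* with time in AclyM-KO cells -0.04 to 0.03, and *Slc36a1* by genotype after 24 h -0.03 to 0.09. The cause of these changes was not tested. Depth limits *Slc6a19* after 3 h, with 2 to 15 counts per library.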
